A study of Mus musculus with 18 samples.

Results

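The transcription factors that give neurons of the mouse spinal cord their class were followed in the SMNΔ7 model of spinal muscular atrophy (SMA). All 38 named genes were found by symbol among 58570 gene loci, at 40 loci. At 35 genes, on 37 loci, the level reached 0.5 FPKM (fragments counted per transcript length and sequencing depth) in at least 1 group, and these are described. Evx1, Sim1 and Wt1 stayed under that level in all 6 groups and enter only the counts over all 40 loci. Whole cords of homozygous (SMA) and heterozygous (control) animals were taken at postnatal day 2 (P2), P6 and P10, as 3 libraries per group and 18 in all. Both genotypes belong to the SMNdelta7 strain, in which, as background, the mouse Smn1 gene is disrupted and human SMN2 and SMNΔ7 transgenes are carried, so controls carry the transgenes and 1 disrupted Smn1 copy. The libraries were made from total RNA after ribosomal RNA depletion. The deposited tables hold 1 combined value per group with the authors' 95% interval, so no value per animal and no SD can be given, and the labels do not say whether a library is 1 cord.

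Spinal neurons are born in dorsal and ventral domains of the neural tube, and each class is marked by a combination of homeodomain, LIM, paired-box, zinc finger or bHLH factors. These factors choose transmitter type, axon path and final position. Many are switched on as the neuron leaves the cell cycle and stay on at a lower level, or in fewer cells, after birth. The members were ordered here into dorsal excitatory classes (8 genes), dorsal inhibitory and dI6 classes (8), ventral interneurons (10), motor neurons (3) and factors shared by several classes (9).

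2 groups stood apart and bear on what follows. Smn1 was at 2.70, 4.46 and 3.54 FPKM in control at P2, P6 and P10. In SMA it was at 0.0210 FPKM at P2, which is 0.778% of control, and was listed at 0 at P6. In the group labelled SMA at P10 it was at 2.82 FPKM, 79.8% of control, which goes against the label. The summed level of 18 myelin genes was 340, 2030 and 8476 FPKM in control at P2, P6 and P10, and 3888, 2296 and 4761 FPKM in SMA, so the SMA group at P2 was above the SMA group at P6 in genes of which 17 were called higher at P10 than at P2 in control. Results in control alone and SMA against control at P6 use neither group. Estimated fragments totalled 6881671 to 7386338 per group, and the median described locus held 40.4 to 73.5 of them. The upper bound of the authors' interval lay, at the median, 73.2% to 85.3% above the level itself, which sets how small a difference can be told from error. Since whole cords were measured, fewer cells of a class and less RNA per cell cannot be told apart.

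Promoter letters are shown for the members at which the age difference in control was steepest against its error, Pou4f1 and Zic1, for Barhl2, which had the second largest log2 ratio among described loci with a single symbol, and for Tal1, which differed little with age. The bases are from RefSeq (GRCm38.p6), 5′ to 3′, upstream of the start and outside the annotated gene. Capitals mark GGGCGG, the core of the GC box, on either strand (CCGCCC on the other). Where matches overlap, as at Pou4f1, only the first is marked.
Pou4f1, chr14:104468000-104468249, minus strand: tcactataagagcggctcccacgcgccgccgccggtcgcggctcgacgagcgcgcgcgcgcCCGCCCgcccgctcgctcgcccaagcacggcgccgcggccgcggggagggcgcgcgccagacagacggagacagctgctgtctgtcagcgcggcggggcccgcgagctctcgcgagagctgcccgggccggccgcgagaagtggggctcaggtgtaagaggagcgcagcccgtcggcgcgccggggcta
Zic1, chr9:91365811-91366018, minus strand: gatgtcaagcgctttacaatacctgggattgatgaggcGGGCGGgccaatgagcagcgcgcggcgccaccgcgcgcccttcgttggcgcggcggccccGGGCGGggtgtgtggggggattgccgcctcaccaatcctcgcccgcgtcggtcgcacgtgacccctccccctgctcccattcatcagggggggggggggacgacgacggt
Barhl2, chr5:106458167-106458416, minus strand: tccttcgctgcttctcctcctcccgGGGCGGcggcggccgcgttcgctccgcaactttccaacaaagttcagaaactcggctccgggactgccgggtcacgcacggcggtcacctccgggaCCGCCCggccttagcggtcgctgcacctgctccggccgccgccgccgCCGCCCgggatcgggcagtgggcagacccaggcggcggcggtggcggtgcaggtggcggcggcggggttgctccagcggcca
Tal1, chr4:115056176-115056425, plus strand: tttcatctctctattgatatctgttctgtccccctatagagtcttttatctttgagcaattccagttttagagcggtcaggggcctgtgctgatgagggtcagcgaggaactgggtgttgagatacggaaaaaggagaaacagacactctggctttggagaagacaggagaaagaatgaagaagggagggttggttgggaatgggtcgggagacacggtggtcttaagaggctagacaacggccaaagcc
The first 3 are rich in CpG, with an observed over expected CpG ratio of 1.24 for Pou4f1, 0.992 for Zic1 and 1.03 for Barhl2, against 0.446 for this Tal1 promoter. A second Tal1 promoter in RefSeq, at chr4:115057561-115057810, has a ratio of 0.74 and holds GGGCGG 3 times, so the contrast is with the printed letters only. Among promoters not printed, that of Nkx6-1, which was level with age in control, has a ratio of 1.13. That of Prrxl1, at a log2 ratio of -1.05 for P10 against P2 in control, has 0.391. A relation of the CpG ratio to the age difference was not tested. RefSeq promoters were matched for 29 of the 38 genes (42 promoters, some genes having several). Of these, 20 held GGGCGG in the 250 bases before the start (47.6%), against 32.7% of all 32851 promoters and 42.6% of those of protein-coding genes. The median CpG ratio was 0.698 over the members' promoters, 0.373 over all and 0.53 over protein-coding genes. A match is a description of letters and was not tied to any factor here.

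**Figure D1:**
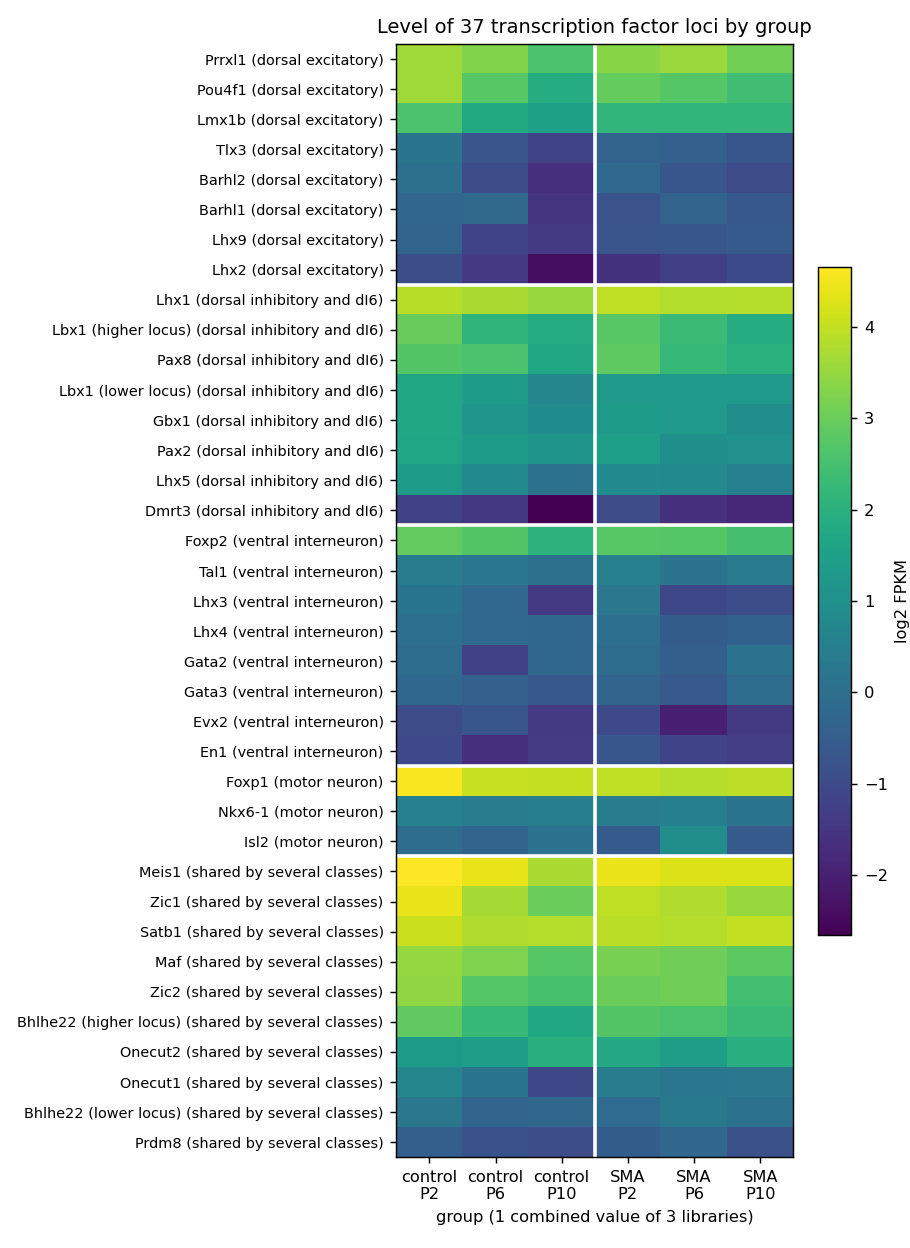
Level of the 37 described loci (rows, grouped by class) in the 6 groups (columns), as log2 FPKM. Meis1, Foxp1 and Zic1 are the brightest rows at P2 in control, and most rows darken from P2 to P10 in control.

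Among dorsal excitatory factors, Prrxl1 (Drg11) and Pou4f1 (Brn3a) were the most abundant. Prrxl1, a paired-type homeodomain factor of dorsal horn and sensory neurons, stood at 12.4, 9.59 and 5.97 FPKM in control at P2, P6 and P10 and at 10.2, 11.7 and 8.53 FPKM in SMA. Pou4f1, a POU factor of several early dorsal classes and of sensory ganglia, stood at 12.3, 6.75 and 3.70 FPKM in control and at 7.68, 6.67 and 5.36 FPKM in SMA. Both were highest in control at P2 and lowest in control at P10, with the 3 SMA values between. Lmx1b, a LIM factor that maintains glutamatergic dorsal horn neurons, was at 6.0, 3.47 and 2.86 FPKM in control and at 4.49, 4.43 and 4.48 FPKM in SMA. In control the level thus ran downward, while the SMA values lay within 0.1 FPKM of each other. Tlx3, which selects glutamatergic over GABAergic fate with Lmx1b, was at 1.12, 0.604 and 0.453 FPKM in control and 0.794, 0.746 and 0.617 FPKM in SMA. The dI1 factors, made by the Atoh1 lineage of relay neurons, were near the lower limit. Barhl2 was at 1.03, 0.504 and 0.323 FPKM in control and 0.901, 0.611 and 0.517 FPKM in SMA. Barhl1 was at 0.846, 0.921 and 0.340 FPKM in control and 0.579, 0.799 and 0.636 FPKM in SMA. For both, control at P10 was the lowest group. Lhx9 was at 0.818, 0.443 and 0.374 FPKM in control and 0.60, 0.612 and 0.679 FPKM in SMA. Lhx2 was at 0.536, 0.367 and 0.193 FPKM in control and 0.334, 0.419 and 0.492 FPKM in SMA, on 2.3 to 6.63 estimated fragments, so its order rests on very few reads.

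Of the dorsal inhibitory factors, Lhx1 had the highest value, 14.8, 13.2 and 11.5 FPKM in control and 15.6, 14.0 and 14.4 FPKM in SMA. That locus is joined in the table with Aatf, a broadly expressed gene, so its level is not that of Lhx1 alone. Lbx1, a homeodomain factor of the dI4 to dI6 classes, is listed as a pair of loci with the same coordinates (chr19:45232525-45254174) and no strand, so either locus of the pair may be an antisense RNA rather than Lbx1 itself. They are called higher and lower by FPKM, and the lower holds more fragments (510.9 against 137.6 in control at P2). The higher Lbx1 locus was at 7.81, 4.32 and 3.56 FPKM in control and 6.81, 5.05 and 3.69 FPKM in SMA. The lower Lbx1 locus was at 3.28, 2.62 and 1.66 FPKM in control and 2.42, 2.49 and 2.47 FPKM in SMA. Pax8, a paired-box factor acting with Pax2, was at 6.52, 5.92 and 3.24 FPKM in control and 7.25, 4.64 and 4.04 FPKM in SMA. Pax2, needed for the GABAergic state of these neurons, was at 3.16, 2.49 and 2.2 FPKM in control and 2.78, 1.99 and 2.06 FPKM in SMA. Pax8 was above control only at P2 and P10 in SMA, and Pax2 was below control at each age. Lhx5, the partner of Lhx1, was at 2.5, 1.81 and 1.07 FPKM in control and 1.83, 1.75 and 1.45 FPKM in SMA. Gbx1, of late-born inhibitory neurons, was at 3.28, 2.30 and 1.88 FPKM in control and 2.54, 2.49 and 1.92 FPKM in SMA. Dmrt3, which marks dI6 neurons of the walking circuit, was at 0.429, 0.359 and 0.159 FPKM in control and 0.512, 0.326 and 0.281 FPKM in SMA. All of these had their lowest control value at P10.

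Ventral interneuron factors were low, apart from Foxp2. Foxp2, a forkhead factor of many V1 neurons, was at 7.47, 6.47 and 4.18 FPKM in control and 6.71, 6.69 and 5.72 FPKM in SMA. Lhx3, a LIM factor of V2a neurons and motor neurons, was at 1.13, 0.896 and 0.375 FPKM in control and 1.18, 0.478 and 0.523 FPKM in SMA. Its relative Lhx4 was at 1.02, 0.906 and 0.858 FPKM in control and 1.01, 0.705 and 0.762 FPKM in SMA. All 3 were lower at P10 than at P2 in both genotypes. The V2b factors Tal1, Gata2 and Gata3, which act together on inhibitory fate, stood close to 1 FPKM. Tal1 was at 1.32, 1.17 and 1.04 FPKM in control and 1.44, 1.09 and 1.27 FPKM in SMA. Gata2 was at 0.954, 0.420 and 0.876 FPKM in control and 0.950, 0.736 and 1.08 FPKM in SMA. Gata3, joined with 9230102O04Rik, was at 0.868, 0.759 and 0.642 FPKM in control and 0.825, 0.649 and 0.961 FPKM in SMA. These 3 had no common order over age. Evx2, of V0 commissural neurons, was at 0.507, 0.619 and 0.375 FPKM in control and 0.487, 0.248 and 0.379 FPKM in SMA. En1, which marks V1 neurons, was at 0.485, 0.318 and 0.384 FPKM in control and 0.619, 0.440 and 0.398 FPKM in SMA.

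Of the 3 motor neuron factors, Foxp1 was high and the others stood near 1 FPKM. Foxp1, which with Hox proteins sorts limb motor neurons into columns, was at 24.1, 16.5 and 15.9 FPKM in control and 15.5, 14.5 and 15.2 FPKM in SMA. Its locus is joined with Eif4e3 and 2 further symbols, and the control value at P2 has an interval from 0 to 142.1 FPKM, so its high value overlaps the other 5 groups. Isl2, a LIM factor of young motor neurons that sensory neurons also use, was at 0.956, 0.809 and 1.10 FPKM in control and 0.702, 1.93 and 0.683 FPKM in SMA. The SMA group at P6 was the high one, with an interval from 0 to 4.15 FPKM. Nkx6-1, of ventral progenitors and some motor neurons, was level, at 1.46, 1.35 and 1.38 FPKM in control and 1.34, 1.41 and 1.12 FPKM in SMA.

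Among factors shared by several classes, Meis1 had the highest control level of all members at P2, and Zic1 followed it and Foxp1. Meis1, a TALE homeodomain partner of Hox proteins, was at 25.2, 21.4 and 13.4 FPKM in control and 21.9, 19.5 and 18.9 FPKM in SMA. That locus is joined with Gm37818, so its level is not that of Meis1 alone. Zic1, a zinc finger factor of the dorsal cord that meningeal cells also express, was at 21.3, 12.7 and 8.0 FPKM in control and 15.5, 13.8 and 11.5 FPKM in SMA. Its relative Zic2 was at 10.9, 6.70 and 5.75 FPKM in control and 8.13, 8.37 and 5.41 FPKM in SMA. All 3 were highest in control at P2. Maf, a bZIP factor of deep dorsal horn neurons and of Renshaw cells, was at 11.3, 9.49 and 6.61 FPKM in control and 8.96, 8.49 and 7.08 FPKM in SMA. Satb1, a chromatin organiser whose locus is joined with Gm36931, was at 16.9, 13.7 and 14.3 FPKM in control and 14.8, 14.5 and 15.8 FPKM in SMA. Maf ran downward with age in both genotypes and Satb1 in neither. Bhlhe22, a bHLH repressor of dorsal horn interneurons, also has a pair of loci at chr3:18052131-18057517, either of which may be antisense, and the higher was at 7.26, 4.76 and 3.34 FPKM in control and 6.52, 5.87 and 4.81 FPKM in SMA. The lower Bhlhe22 locus ranged from 0.836 to 1.23 FPKM over the 6 groups. Prdm8, the partner of Bhlhe22 in repression, was at 0.743, 0.570 and 0.522 FPKM in control and 0.712, 0.845 and 0.558 FPKM in SMA. Onecut1 and Onecut2, cut-homeodomain factors of motor neurons and Renshaw cells, ran in opposite directions with age in control. Onecut1, whose locus is joined with Gm16551 and Gm20649, was at 1.67, 1.11 and 0.480 FPKM in control and 1.35, 1.17 and 1.2 FPKM in SMA. Onecut2 was at 2.52, 2.75 and 3.98 FPKM in control and 3.37, 2.73 and 3.88 FPKM in SMA, and was the only member with its lowest control value at P2 and its highest at P10 among those at a mean of 1 FPKM or more.

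**Figure D2:**
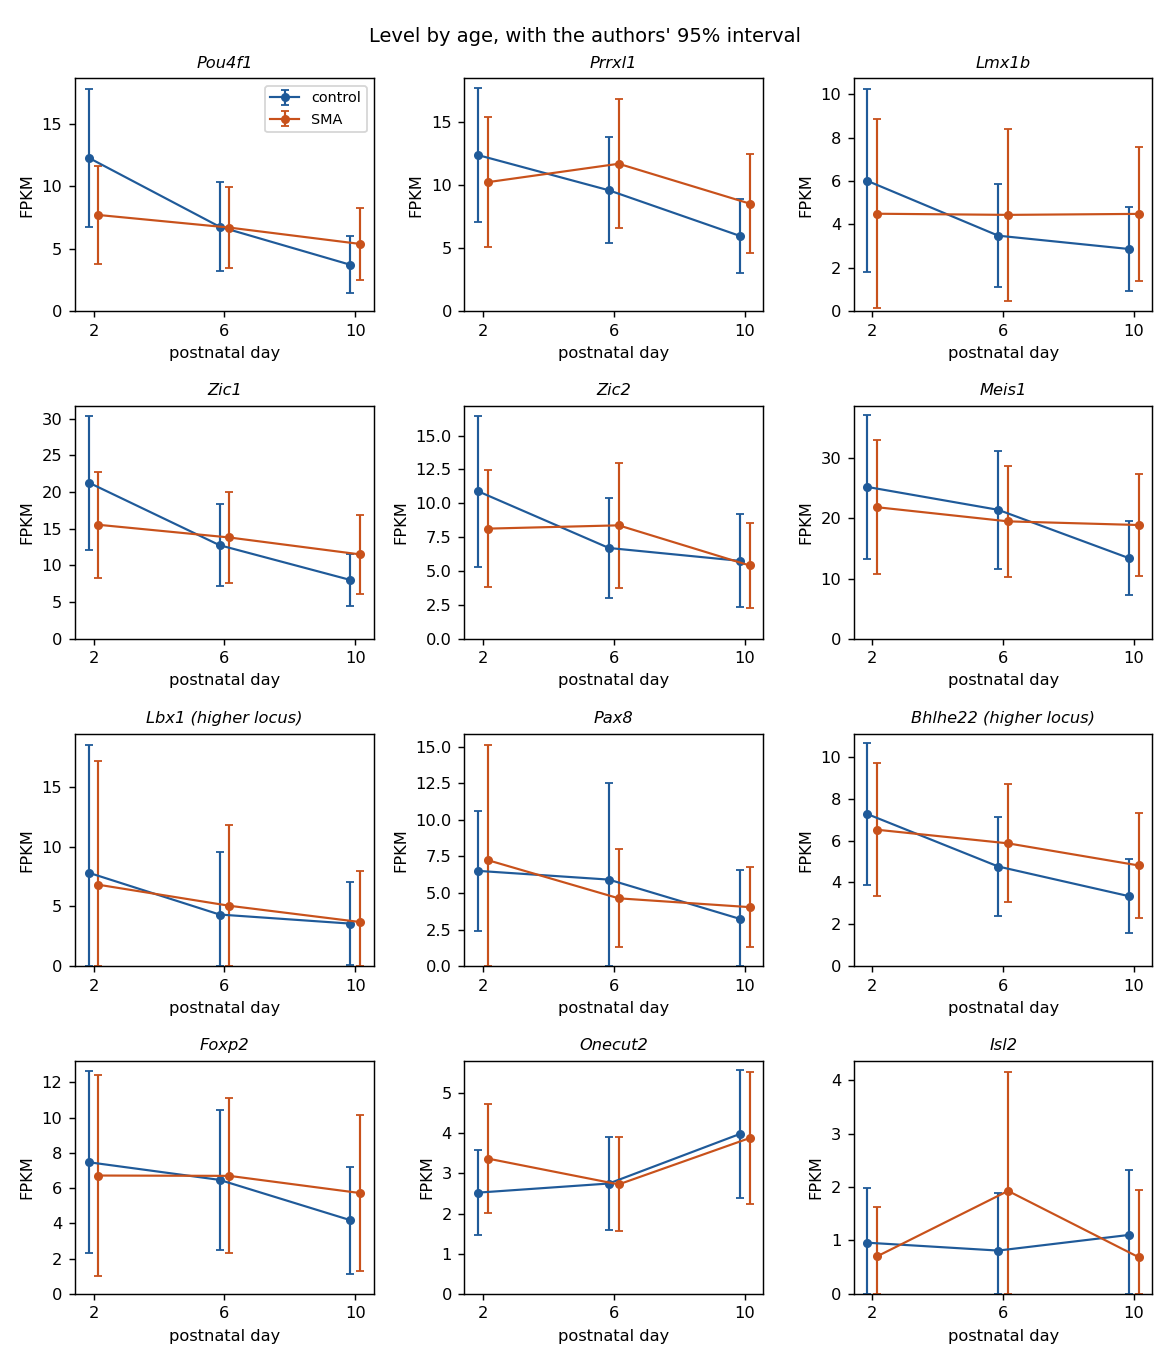
Level (FPKM) of 12 member loci at P2, P6 and P10 in control and SMA, with the authors' 95% interval as bars. The control lines run downward for Pou4f1, Zic1 and Prrxl1, and the bars of the genotypes overlap at every age shown.

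In control cord most members had a lower level at P10 than at P2. The value was lower at 38 of 40 loci (49.5% of all loci above 0), the exceptions being Onecut2, with a log2 ratio of 0.66, and Isl2, with 0.20, which turned negative when the deposited counts were used. At 26 loci it was lower by 1.5-fold or more, 65.0% of the members against 19.3% of all loci. Among the 24 member loci at a mean of 1 FPKM or more over the 6 groups, 16 were lower by that much, against 10.9% of all loci at that level. Their median log2 ratio was -0.88, and that of all such loci 0.01. No member passed the test of single genes, a z test of the log ratio with the standard error taken from the authors' intervals and Benjamini-Hochberg adjustment over all 19956 loci tested, which called 0.631% of loci.

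The difference was largest in the dorsal excitatory class, where all 8 loci were lower and the median log2 ratio was -1.31. It was -1.01 over the 9 dorsal inhibitory and dI6 loci, -0.84 over the 10 shared loci and -0.44 over the 10 ventral loci, of which all the dorsal and ventral ones were lower. The 3 motor neuron loci had a median of -0.09. The classes were not tested against each other. The steepest described values were -1.80 ± 1.19 (standard error) for the joined Onecut1 locus, -1.73 ± 0.56 for Pou4f1, -1.67 ± 0.82 for Barhl2, -1.60 ± 2.07 for Lhx3, -1.48 ± 4.63 for Lhx2, -1.43 ± 1.19 for Dmrt3 and -1.41 ± 0.45 for Zic1. Lhx2 and Dmrt3 were under 1 FPKM and not tested, and Lhx2 reached 0.5 FPKM only in control at P2. The adjusted p of the z test was 0.208 for Pou4f1 and 0.191 for Zic1. At an unadjusted p under 0.05 there were 5 members of 28 tested (Prrxl1, Pou4f1, Barhl2, Zic1 and the higher Bhlhe22 locus), against 3.51% of loci tested. Barhl2 was tested only because control at P2 reached 1 FPKM (1.03 against 0.323 FPKM at P10), so the filter fixed its direction. The same holds, among the 28, for Tlx3, Lhx3, Lhx4, the joined Onecut1 locus and the lower Bhlhe22 locus. The intervals at P2 and P10 did not overlap for Pou4f1, from 6.73 to 17.8 FPKM and from 1.42 to 5.98 FPKM, nor for Zic1, from 12.2 to 30.4 FPKM and from 4.45 to 11.5 FPKM. Such a gap was seen at 1.36% of loci. If the interval is read as that of 1 library, 6 members pass, with adjusted p of 0.0062 for Prrxl1, 9.95e-06 for Pou4f1, 0.0129 for Barhl2, 0.0296 for Meis1, 7.36e-06 for Zic1 and 0.00722 for the higher Bhlhe22 locus, against 4.61% of loci. Here too Barhl2 entered only through control at P2.

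Both steps of age took part. The median log2 ratio over the 40 loci was -0.35 from P2 to P6 and -0.46 from P6 to P10, where that of all loci was 0.02 and 0.00. The level was lower at each step at 31 of the 40 loci, against 23.5% of all loci. The 20 pan-neuronal genes went both ways from P2 to P10 in control, 7 lower and 5 higher by 1.5-fold or more, with a median log2 ratio of -0.18 and summed levels of 2036, 1781 and 1745 FPKM. They ranged from Dcx, a microtubule protein of young neurons, at -2.31, and Gap43, a growth cone protein, at -1.55, to Thy1, a surface protein of mature neurons, at 1.54, which was the one called. Their part in the members' values was not tested. Over the same ages the summed level of 10 astrocyte genes was 411, 613 and 984 FPKM, and of myelin genes as given above, and their part in the members' values was not tested. The 16 sensory ganglion genes, of interest because Pou4f1, Prrxl1, Tlx3 and Isl2 are also ganglion factors, summed to 16.7, 22.2 and 23.3 FPKM in control, with 2 or 3 of them at 1 FPKM. Most of that sum was Calca, a peptide gene that motor neurons also express, at 9.73, 12.1 and 16.1 FPKM, while Piezo2, a touch channel, was at 3.92, 4.68 and 3.15 FPKM. The part of ganglion RNA in these members was not tested. The 11 meningeal genes summed to 178, 220 and 215 FPKM in control and to 142, 280 and 133 FPKM in SMA. Of the 8 tested in SMA against control, 6 were lower at P2, 8 higher at P6 and 8 lower at P10. The part of meningeal RNA in Zic1 was not tested.

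**Figure D3:**
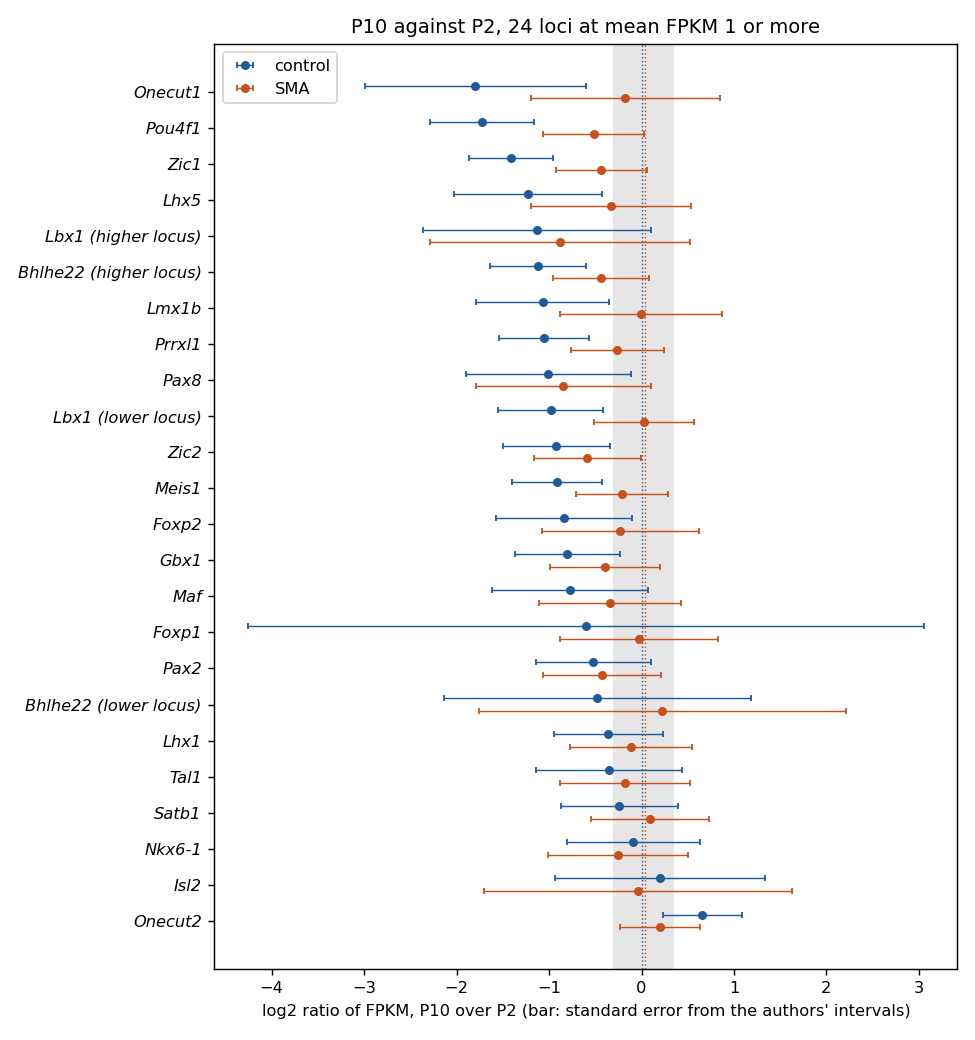
Log2 ratio of FPKM, P10 over P2, for the 24 member loci at a mean of 1 FPKM or more, in control and SMA. Bars are standard errors from the authors' intervals, the grey band holds the middle of all loci in control from the lower to the upper quartile, and dotted lines are the medians of all loci. Control points lie left of the band for most members, and SMA points lie nearer to 0.

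In SMA the members had a smaller difference between P2 and the group labelled SMA at P10. The value was lower at 30 of 40 loci, against 42.0% of all loci. Of the 24 loci at a mean of 1 FPKM, 3 were lower by 1.5-fold or more, against 3.91% of all, namely the higher Lbx1 locus (-0.88 ± 1.40), Pax8 (-0.84 ± 0.94) and Zic2 (-0.59 ± 0.58). The median of the 24 was -0.24, and that of all such loci 0.04. No member passed the z test, which called 0.0602% of loci. The level was lower at each step at 14 of 40 loci, against 15.8% of all loci. From P2 to P6, which leaves out the group whose Smn1 goes against its label, the median over the 40 loci was -0.12, and from P6 to P10, which leaves out the P2 group, it was -0.19.

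The change from P2 to P10 was set against that of control directly. The difference of the log2 ratios, SMA minus control, was above 0 at 35 of 40 loci, against 56.2% of all loci. Its median was 0.59, where the median of all loci was 0.10. It was also above 0 at 29 of 41 tested genes of the list of other identity genes described below (median 0.32). Of the 20 pan-neuronal genes, 11 were above 0 (median 0.10). All 8 dorsal excitatory loci and all 9 dorsal inhibitory and dI6 loci were above 0, with medians of 1.14 and 0.40. The values were 1.21 ± 0.78 for Pou4f1, 0.98 ± 0.67 for Zic1, 1.07 ± 1.13 for Lmx1b and 1.62 ± 1.57 for the joined Onecut1 locus. Onecut2 was below 0, at -0.46 ± 0.61. None of 29 members tested passed the z test of this difference (adjusted p of 1 throughout), which called 0.0574% of loci, so the smaller slope in SMA is a description of these groups. It rests on both groups that stood apart, and on the control groups at P2 and P10 that the control comparison also uses.

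**Figure D4:**
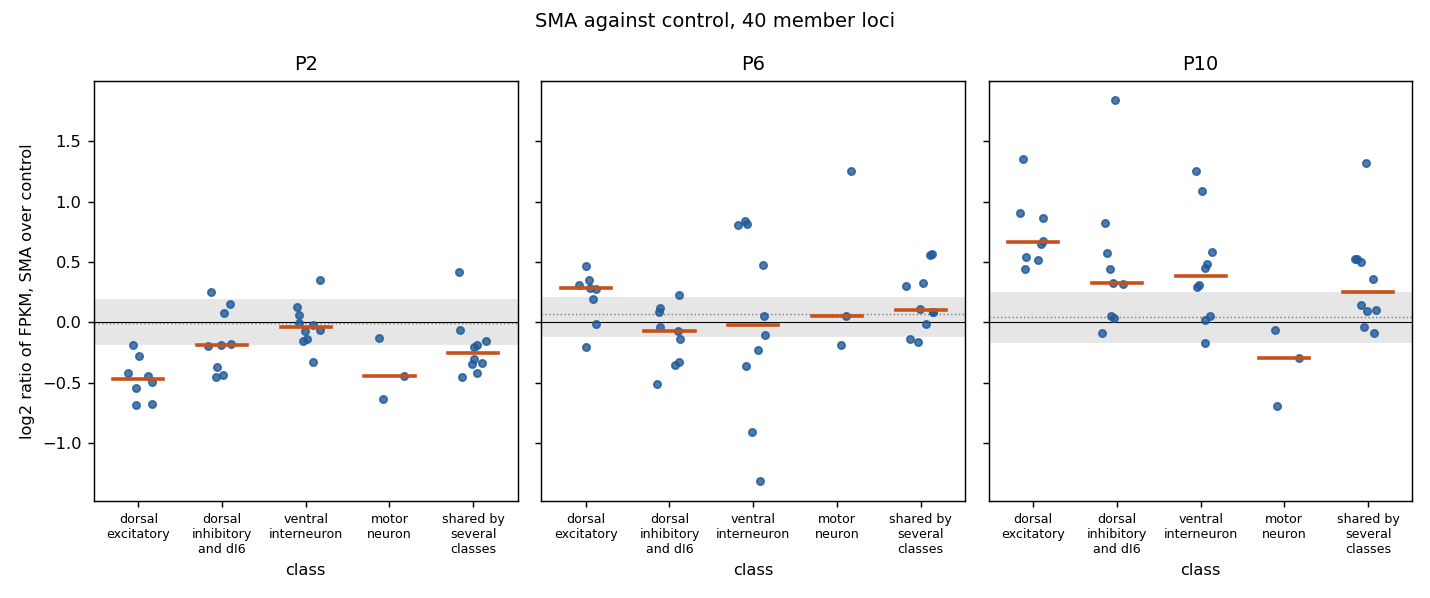
Log2 ratio of FPKM, SMA over control, for the 40 member loci at P2, P6 and P10, by class. Points are loci, orange lines class medians, the grey band the lower to upper quartile of all loci at a mean of 1 FPKM or more and the dotted line their median. Dorsal excitatory points lie below 0 at P2 and above 0 at P10.

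At P2 most members were lower in SMA than in control, by small amounts. The value was lower at 33 of 40 loci, against 52.5% of all loci, with a median log2 ratio of -0.20. All 8 dorsal excitatory loci were lower (median -0.47), as were all 3 motor neuron loci (-0.45) and 9 of the 10 shared loci (-0.26). Of the 24 loci at a mean of 1 FPKM, 2 were lower by 1.5-fold or more, against 4.39% of all, Pou4f1 at -0.68 ± 0.50 and the joined Foxp1 locus at -0.64 ± 3.65. None was higher by that much, where 6.53% of all loci were. Zic1 was at -0.46 ± 0.47, and Onecut2 was the highest at 0.42 ± 0.43. No member passed the z test, which called 0.126% of loci. At this age all 18 myelin genes were higher in SMA (median log2 ratio 3.33, 8 called). The 20 pan-neuronal genes had a median of -0.15 (12 lower and 8 higher), and relative to them no member was lower by 1.5-fold. The part of the myelin difference in the members' values was not tested.

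At P6, where Smn1 was listed at 0 in SMA, the members did not lean to either side. The value was higher at 23 of 40 loci, against 53.8% of all loci, with a median of 0.08. Scaling the groups to equal medians moved the genotypes apart by 0.12 on the log2 scale at this age and put 17 of the 24 loci at a mean of 1 FPKM below 0, so the direction of small values here depends on the scaling. Of those 24, only Isl2 was higher by 1.5-fold or more (1.25 ± 1.30), against 3.08% of all loci. None was lower by that much, against 4.36%. Isl2 reaches a mean of 1 FPKM only with this high SMA value at P6, so the filter itself favoured its place in the count. Evx2, a low member, was at -1.32 ± 1.15 on 12.4 and 6.93 estimated fragments. No member passed the z test, which called 0.0459% of loci. In the SMA group at P6, where Isl2 was high, the 16 sensory ganglion genes summed to 34.9 FPKM against 22.2 FPKM in control, with 8 of 16 at 1 FPKM against 3, and 8 of the 8 tested were above control. Among them Avil was at 1.89 against 0.550 FPKM and Scn10a at 1.22 against 0.550 FPKM. A gene was tested if either group reached 1 FPKM. Those under 1 FPKM in control, such as Avil and Scn10a, were tested only through the SMA group. Their sign was thus fixed by the filter, and the count of 8 of 8 is no measure of direction. The other members used in ganglia were at log2 ratios of -0.02 (Pou4f1), 0.29 (Prrxl1) and 0.30 (Tlx3). The part of ganglion RNA in these values was not tested.

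At P10 most members stood above control in the group whose label is SMA. The value was higher at 33 of 40 loci, against 56.1% of all loci, with a median log2 ratio of 0.44. All 8 dorsal excitatory loci were higher (median 0.66), with 8 of 9 dorsal inhibitory and dI6 loci (0.32), 9 of 10 ventral loci (0.38) and 8 of 10 shared loci (0.25). All 3 motor neuron loci were lower, Isl2 at -0.69 ± 1.58, Nkx6-1 at -0.29 ± 0.75 and Foxp1 at -0.06 ± 0.85. Of the 24 loci at a mean of 1 FPKM, the joined Onecut1 locus (1.32 ± 1.26) and Lmx1b (0.65 ± 0.71) were higher by 1.5-fold or more, against 6.55% of all. Isl2 was lower by that much, against 4.27%, and is among the 24 only through its SMA value at P6. Zic1 was at 0.52 ± 0.48 and Prrxl1 at 0.52 ± 0.50. No member passed the z test, which called 0.0397% of loci. Beside this, all 18 myelin genes were lower in that group (median -0.78, none called) and 11 of 12 motor neuron markers were lower (median -0.54, none called). The 20 pan-neuronal genes had a median of 0.01 but went both ways, 10 higher and 10 lower, from -0.85 for Nefm to 1.24 for Dcx. The part of these in the members' values was not tested.

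With the ages as replicates, no member passed a test of genotype. A limma model of log2(FPKM + 1) on age and genotype, with 2 residual degrees of freedom, gave a median difference of 0.03 over 29 members tested, from -0.28 ± 0.13 for Foxp1 to 0.18 ± 0.14 for the higher Bhlhe22 locus, and called 0.00455% of loci. No member reached an unadjusted p under 0.05, against 2.05% of loci. In the same model the difference of P10 from P2, with the genotypes as replicates, was negative at 26 of 29 members, against 43.4% of all loci. It was -0.84 ± 0.14 for the higher Lbx1 locus, -0.97 ± 0.25 for Pou4f1, -0.86 ± 0.22 for Zic1, -0.77 ± 0.17 for Pax8 and -0.66 ± 0.18 for Zic2. At an unadjusted p under 0.05 there were 14 of 29, against 15.4% of loci, but the lowest adjusted p of a member was 0.282 and none passed, where 0.0137% of loci did.

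Other genes of spinal neuron identity, 49 matched of a list of 55, leaned the same way with age in control. Of 41 tested, 30 had a lower value at P10 and 11 a higher one, with a median log2 ratio of -0.52, and 1 passed the z test. That gene was Neurod6, a bHLH factor of neuronal differentiation, which fell from 9.56 to 5.93 and 2.36 FPKM in control and stood at 8.32, 6.33 and 4.89 FPKM in SMA. The most abundant of the list were Ebf3, at 60.1, 38.9 and 25.8 FPKM in control and 45.2, 45.7 and 36.7 FPKM in SMA, and Ebf1, at 50.6, 41.5 and 26.7 FPKM in control and 38.4, 39.9 and 36.3 FPKM in SMA. Both are EBF factors of differentiating neurons and had the order of Zic1 over the control ages. The list's medians for SMA against control were -0.14 at P2, 0.06 at P6 and 0.10 at P10, with no gene called. Progenitor factors, 29 matched of 30, did not have this direction. Their summed level was 53.3, 67.4 and 85.9 FPKM in control and 66.5, 61.5 and 70.7 FPKM in SMA. At P10, 8 of 13 tested were higher than at P2 in control and 5 were lower. Sox2, at 19.45, 21.7 and 22.1 FPKM in control, and Olig2 made up much of the summed level. Olig2, which oligodendrocyte precursors keep, rose from 9.91 to 17.6 and 25.9 FPKM in control. Nkx6-2, at 1.0, 2.6 and 8.0 FPKM, and Nkx2-2, at 3.0, 5.5 and 8.2 FPKM, also rose with age in control. Sox1, among the 5 lower ones, was at 1.85, 1.60 and 1.15 FPKM. The 12 microglial genes summed to 86.6, 93.7 and 98.1 FPKM in control and 106, 108 and 100.5 FPKM in SMA. The 10 endothelial genes summed to 53.1, 73.7 and 95.9 FPKM in control and 76.9, 70.2 and 66.5 FPKM in SMA. The 10 erythroid genes summed to 750, 968 and 714 FPKM in control and 502, 802 and 455 FPKM in SMA.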

How the data were processed

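RNA-seq of whole mouse spinal cord was deposited as 1 value per gene locus and group of 3 libraries. FPKM and its 95% interval, and estimated counts of fragments, were made by the authors with Cuffdiff of Cufflinks 2.2.1, after TopHat2 2.1.1 and Bowtie2 2.2.4 on GRCm38, per the submitters' processing notes, which give no settings. Replicates were combined by the authors, so any p measures their modelled spread, not animals. Loci can join several genes: 6 of the 37 described loci carry further symbols. Of 58570 loci, 46527 have 1 symbol. GENCODE M21 (GRCm38) gave positions.

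From these values, log2 ratios of FPKM were tested by a two-sided z test (standard error: upper bound minus FPKM, divided by 1.96, on the log scale), over loci at 1 FPKM or more in a compared group, with Benjamini-Hochberg adjustment and a threshold of 0.05. limma 3.58.1 (R 4.3.3) was fitted to log2(FPKM + 1), so its differences understate those of low genes. Both were run on simulated data with errors of the kind each test assumes. Such a run cannot show how well the tests hold on the authors' intervals or with ages as replicates. Counts past 1.5-fold used loci at a mean of 1 FPKM or more over all 6 groups, or all loci above 0. Python 3.11.15 was used. Named genes are all members, with each group's value for the most abundant of each class and those with the largest log2 ratios, called genes and the 2 most abundant of the other identity list, and Smn1. The members and lists were chosen with earlier results of these data known. Alternatives were the deposited counts, no filter, the interval read as 1 library's, non-overlap of intervals, equal-median scaling, a pseudocount of 0.1, no trend, each age left out, and, chosen after seeing the data, loci of a single symbol and values relative to pan-neuronal genes. RefSeq promoters were searched for GGGCGG.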

Additional observations from a re-analysis of the deposited data

How the results depend on the processing

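No member passed the adjusted test in any of the 8 comparisons as reported. In P10 against P2 in control, 6 members passed with the interval read as that of 1 library. Of these, Barhl2 was tested only through control at P2. By non-overlap of intervals 2 members passed. Both readings use a narrower error or no adjustment, and the other alternatives called none. Without the filter on low values, 26 of 40 loci instead of 16 of 24 were lower by 1.5-fold for P10 against P2 in control. For P10 against P2 in SMA, 7 instead of 3 were lower, and for SMA against control at P10, 10 instead of 2 were higher. Among all loci these shares were 19.3%, 11.4% and 17.0% without the filter, against 10.9%, 3.91% and 6.55% with it. More loci are counted without it, and over all loci the share past the fold also rose. With single-symbol loci, 1 instead of 2 was lower at P2 and 1 instead of 2 higher at P10 in SMA against control, and relative to the pan-neuronal genes 0 were lower at P2. Of 1080 values of single loci under 10 alternatives, 1022 kept their sign and side of the threshold, 8 passed it and 50, none of them called, changed sign. Across ages, the median SMA difference of the members was 0.16 without P2, 0.02 without P6 and -0.06 without P10. No paired analysis was possible because the deposited columns hold 1 combined value per group and carry no replicate number; leaving out each replicate was not run for the same reason. Depth limits the low members most: the lowest described locus held 2.3 to 6.63 estimated fragments per group.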
